A study of Mus musculus with 32 samples.

Results

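The Hox genes of the mouse encode homeodomain transcription factors and lie in 4 clusters, Hoxa, Hoxb, Hoxc and Hoxd. The 38 listed genes were taken by symbol from the 21886 rows of the deposited count table: 10 Hoxa, 10 Hoxb, 9 Hoxc and 9 Hoxd genes. Presomitic mesoderm (PSM), the tissue that is cut into somites, had been made in culture from mouse epiblast stem cells (EpiSCs) that carry a luciferase reporter of the segmentation clock gene Hes7, and RNA-seq was used to follow the clock. The question asked here is which Hox genes these cells transcribed, how their transcripts changed over the hours sampled, whether any followed the clock, and how far the repeat of the time course gave the same Hox levels.

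Within a cluster all Hox genes are transcribed from the same strand, and their order on the chromosome matches the order in which they are switched on in the posterior of the embryo, from the 3' end, where the low-numbered genes lie, to the 5' end. Genes with the same number in different clusters are paralogs, and the combination of paralogs that a PSM cell transcribes when it joins a somite gives that somite its position along the axis. Low-numbered genes act in the hindbrain and neck, middle ones in the thorax, and the highest-numbered ones in the sacrum, the tail and the distal limb. The switch from one gene to the next responds to Wnt and FGF signals, to CDX factors and to retinoic acid, and silent genes carry Polycomb marks.

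Ex5 had 16 libraries taken between 165 and 425 min, and Ex4 had 16 libraries taken between 155 and 405 min, with 1 library per time point in each. Every library came from the same reporter line, derived from the EpiSC line AES0204, so no genotype differs between the experiments. All dishes were induced for 30 h in SB431542 (10 µM), LDN193189 (250 nM), bFGF (20 ng/ml) and CHIR99021 (10 µM), inhibitors of TGF-β receptors and of BMP receptors, a growth factor and a GSK3 inhibitor that raises Wnt signalling. CHIR99021 was then lowered to 1 µM. The labels name separate dishes but no separate cultures within an experiment, so a difference between Ex5 and Ex4 is one between 2 sets of dishes. The p-values measure the scatter of libraries around fitted curves and not the spread among cultures, and that scatter may be technical.

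Libraries held 16.1 to 28.6 M counts in Ex5 and 19.3 to 29.5 M in Ex4, and no pair was identical. The labelled tissue was checked against markers. All 15 PSM markers passed the expression filter. Tbx6 had a median of 577 CPM (counts scaled to a common library size) in Ex5 and 441 CPM in Ex4. Of 14 markers of the anterior PSM and somite, 8 had medians under 1 CPM: Mesp2, Ripply1, Ripply2, Meox2, Tcf15, Pax1, Uncx and Tbx18. The other 6 passed the filter, and the list summed to a median of 143 CPM in Ex5 and 113 CPM in Ex4. Aldh1a2 alone had medians of 66.6 CPM in Ex5 and 61.0 CPM in Ex4. Of 14 neural and hindbrain markers 10 passed, with summed medians of 116 CPM in Ex5 and 165 CPM in Ex4. The library farthest from its fitted curves was that of 305 min in Ex5 and that of 405 min in Ex4, with residual SDs of 0.15 each on the log2 scale against a median of 0.12, and counts without this pair are given beside the main ones where they differ.

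The promoters of 5 members whose transcripts carry the results below are shown first, so that the sequence at their start sites can be set beside their values. Hoxa7 and Hoxa9 had the largest differences between the experiments, Hoxd3 rose and Hoxa5 fell steeply in both, and Hoxd9 had the largest difference in slope. Each window holds 250 bases before and 50 bases after a RefSeq start site, is given 5' to 3' on the gene's strand, and comes from GRCm38.p6. Capitals mark TTTATG, the core recognised by CDX factors, on either strand.
Hoxa5 (chr6:52204538-52204837, minus strand): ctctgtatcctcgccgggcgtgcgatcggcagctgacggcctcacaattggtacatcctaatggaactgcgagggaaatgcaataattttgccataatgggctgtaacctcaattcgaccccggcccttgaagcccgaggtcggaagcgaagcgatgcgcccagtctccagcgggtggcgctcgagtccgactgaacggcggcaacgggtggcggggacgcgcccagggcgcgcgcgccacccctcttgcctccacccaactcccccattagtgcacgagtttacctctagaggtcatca
Hoxa7 (chr6:52218524-52218823, minus strand): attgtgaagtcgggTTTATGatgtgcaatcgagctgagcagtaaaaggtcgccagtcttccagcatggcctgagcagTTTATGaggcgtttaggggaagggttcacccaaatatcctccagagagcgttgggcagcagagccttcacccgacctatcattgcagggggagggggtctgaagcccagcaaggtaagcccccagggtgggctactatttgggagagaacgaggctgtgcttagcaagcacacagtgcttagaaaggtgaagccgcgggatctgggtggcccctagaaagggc
Hoxa9 (chr6:52227321-52227620, minus strand): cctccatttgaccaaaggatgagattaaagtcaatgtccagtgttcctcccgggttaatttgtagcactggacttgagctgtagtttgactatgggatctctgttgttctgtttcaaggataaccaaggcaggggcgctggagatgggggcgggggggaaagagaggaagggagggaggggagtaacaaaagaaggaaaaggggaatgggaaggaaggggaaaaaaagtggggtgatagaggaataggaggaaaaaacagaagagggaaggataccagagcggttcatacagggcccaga
Hoxd3 (chr2:74711743-74712042, plus strand): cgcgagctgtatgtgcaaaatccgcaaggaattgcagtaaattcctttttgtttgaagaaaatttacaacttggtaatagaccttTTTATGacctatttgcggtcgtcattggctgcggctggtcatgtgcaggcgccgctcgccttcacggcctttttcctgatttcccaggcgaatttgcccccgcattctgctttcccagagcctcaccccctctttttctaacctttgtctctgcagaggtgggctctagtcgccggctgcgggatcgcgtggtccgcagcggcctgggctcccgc
Hoxd9 (chr2:74697513-74697812, plus strand): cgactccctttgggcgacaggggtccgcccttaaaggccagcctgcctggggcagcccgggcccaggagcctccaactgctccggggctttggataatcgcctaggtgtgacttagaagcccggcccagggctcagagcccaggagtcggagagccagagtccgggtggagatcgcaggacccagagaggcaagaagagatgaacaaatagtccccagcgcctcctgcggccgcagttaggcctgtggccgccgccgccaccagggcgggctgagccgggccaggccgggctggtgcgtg
The Hoxa7 window held the CDX core 2 times, at 236 and 173 bases before the start site, and the Hoxd3 window held it 1 time, at 165 bases before it. The windows of Hoxa5, Hoxa9 and Hoxd9 did not hold these letters, which says nothing of CDX binding elsewhere.

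RefSeq gave 24 such windows for 22 of the 38 Hox genes. TTTATG, searched on both strands, was in 5 of the 24 (20.8%), those of Hoxa7, Hoxb8, Hoxd3, Hoxd4 and Hoxd11, and in 11.9% of the 32851 windows of all genes. The HOX-PBX site TGATNNAT was in 4 Hox windows (16.7%), of Hoxa2, Hoxb1, Hoxb8 and Hoxd11, against 8.85% of all windows. The TATA box TATAAA, whose letters differ from the reverse complement of the CDX core only at the first base, was in 4 Hox windows (16.7%) against 13.6% of all. The direct repeat DR5 of retinoic acid receptors was in 0 Hox windows and in 0.1% of all. Hox windows had a median GC content of 57.7%, against 52.7% over all windows, and a median ratio of observed to chance CpG of 0.626 against 0.384. Matches are descriptions of letters and not of bound sites.

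Of the 38 Hox genes, 25 passed the filter of at least 1 CPM in at least 16 libraries and were tested, 12 had counts but stayed below it, and Hoxc12 had no count in any library. The share tested was smaller toward the 5' ends: 11 of 11 genes of paralog groups 1 to 4, 10 of 11 genes of groups 5 to 8, and 4 of 16 genes of groups 9 to 13. The last of these were the 4 group 9 paralogs Hoxa9, Hoxb9, Hoxc9 and Hoxd9, so no gene of groups 10 to 13 was tested. By cluster, 6 of 10 Hoxa, 9 of 10 Hoxb, 5 of 9 Hoxc and 5 of 9 Hoxd genes were tested.

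Hoxb genes made up most of the Hox RNA. Per kb of exon, Hoxb genes held a median of 68.8% of the summed Hox level in Ex5 and 64.5% in Ex4. The share of Hoxc genes was 15.0% in Ex5 and 18.5% in Ex4, that of Hoxd genes 9.65% in Ex5 and 8.88% in Ex4, and that of Hoxa genes 6.59% in Ex5 and 8.03% in Ex4. Summed over all 38 genes, the level was 1301 to 1457 CPM in Ex5 with a median of 1381 CPM, and 1262 to 1452 CPM in Ex4 with a median of 1357 CPM. The 2 ranges overlapped. In bulk RNA, fewer cells that transcribe a gene and less RNA per cell cannot be told apart, and this holds for every level below.

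To compare genes, levels were divided by the joined length of all exons annotated for a gene. The annotation used for counting is not known, and the order depends on these lengths: Hoxa3 ranked 13 per kb but 9 by CPM. Hoxb9 and Hoxb1 led on both scales, with medians over all libraries of 79.9 and 79.5 CPM per kb. These 2 genes stand at opposite ends of the transcribed part of their cluster. Hoxb9 takes part in thoracic rib patterning and Hoxb1 in hindbrain segmentation. Hoxb8 (41.7 CPM per kb), Hoxb6 (41.1), Hoxc4 (38.3), Hoxd4 (30.7) and Hoxb2 (27.1) followed. Hoxa3, an organiser of the pharyngeal arches and neck, was the highest Hoxa gene by the median over all libraries, at 12.2 CPM per kb. It stood above Hoxa7 in Ex5 (12.5 against 4.51 CPM per kb) but below it in Ex4 (11.9 against 12.9). The group 9 paralogs spanned a wide range: 79.9 CPM per kb for Hoxb9, 2.85 for Hoxd9, 1.90 for Hoxc9 and 0.257 for Hoxa9.

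**Figure D1:**
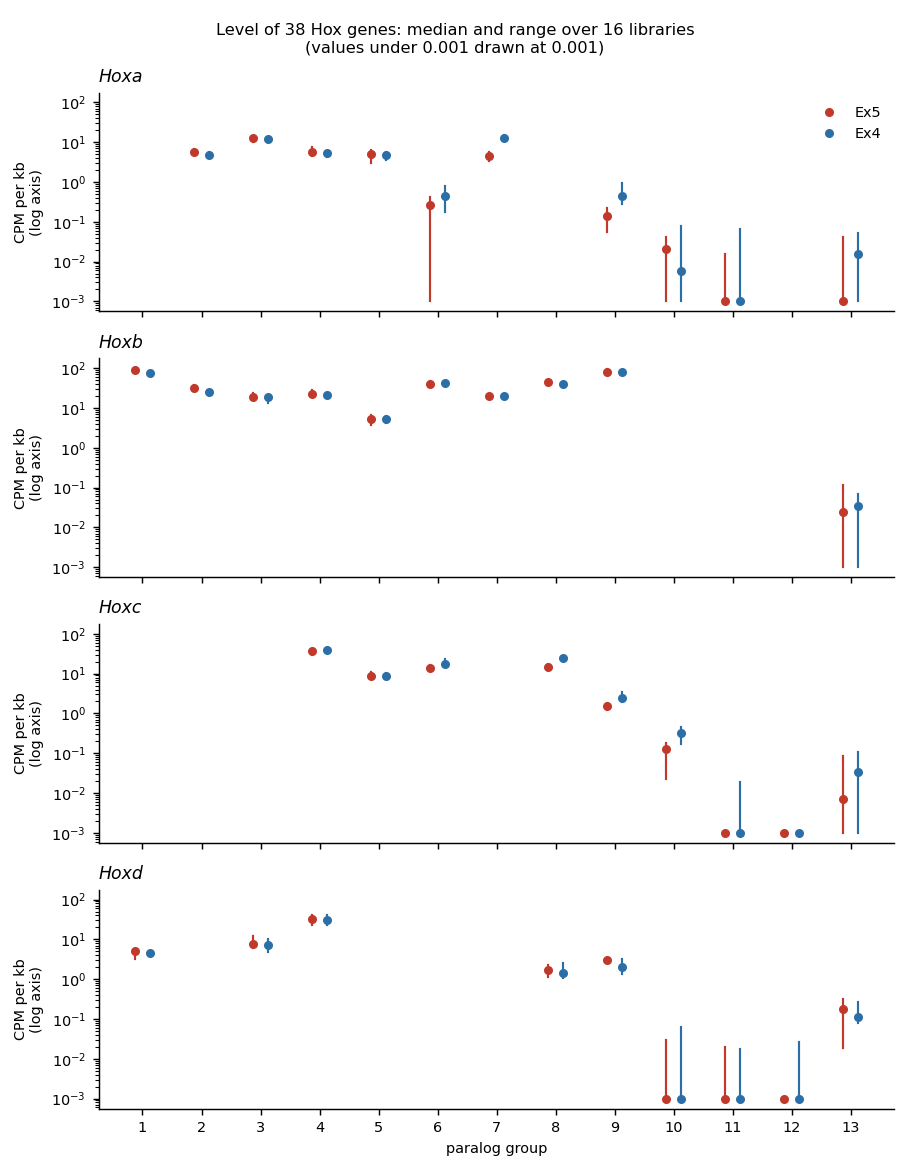
Level of each of the 38 Hox genes in CPM per kb of exon on a log axis, by paralog group, in Ex5 (red) and Ex4 (blue); points are medians and lines run over the range of 16 libraries, with values under 0.001 drawn at 0.001. Levels drop beyond group 9 in all 4 clusters, and Hoxa7 and Hoxa9 stand lower in Ex5.

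The genes next to the filter show where it fell. Hoxa9 was the tested gene closest to it, with 17 libraries at 1 CPM or more, all 16 of Ex4 and 1 of Ex5. It therefore passed through Ex4, where it is higher. The other 24 tested genes reached 1 CPM in all 32 libraries. Just outside were Hoxc10, Hoxa6 and Hoxd13, with 0 libraries at 1 CPM and totals of 311, 224 and 270 counts over the 32 libraries. Hoxc10, a gene of the group that suppresses ribs in the lumbar region, had 0.0423, 0.239 and 0.348 CPM (lowest, median and highest library) in Ex5, against 0.333, 0.611 and 0.885 CPM in Ex4. Hoxa6, a thoracic gene next to Hoxa7, had 0, 0.235 and 0.367 CPM in Ex5, against 0.151, 0.384 and 0.677 CPM in Ex4. Hoxd13, known for the digits and genital tubercle, had 0.0466, 0.437 and 0.809 CPM in Ex5, against 0.194, 0.279 and 0.652 CPM in Ex4. The Ex5 libraries lay mostly below those of Ex4 for Hoxc10 and Hoxa6 and spread around them for Hoxd13, and all 3 pairs of ranges overlapped.

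The other 9 genes below the filter, Hoxa10, Hoxa11, Hoxa13, Hoxb13, Hoxc11, Hoxc13, Hoxd10, Hoxd11 and Hoxd12, had between 1 count (Hoxc11) and 54 counts (Hoxc13) over the 32 libraries. For Hoxc12, 0 of 728 M counts allows a level of up to 0.00412 CPM over all libraries together, or 0.102 CPM in the deepest single library, on 3 counts and for counting error only. These genes of groups 10 to 13 act in the lumbar and sacral region, the tail, the limb and the urogenital tract. They were at or near the limit of detection at this depth, which does not show that they were silent in every cell.

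Over the hours sampled, most tested Hox genes changed by the mean slope of the experiments. More of them rose than fell by that mean and in Ex4, but not in Ex5. The mean of the Ex5 and Ex4 slopes passed edgeR's quasi-likelihood test (adjusted p under 0.05 over all 11772 genes) for 13 rising Hox genes of 25 (52%), against 26.8% of all tested genes, and for 8 falling ones (32%), against 26.1%. The share of falling Hox genes was close to the background. Either way, 21 genes (84%) passed, against 52.9% of all tested genes. The median slope of the 25 Hox genes was 0.07 log2 per 100 min, and that of all tested genes was -0.00. In Ex5 itself 8 Hox genes rose (32%, against 25.8% of all tested genes) and 9 fell (36%, against 25.1%), 17 in all (68%, against 50.8%). In Ex4 12 rose (48%, against 17%) and 3 fell (12%, against 15.1%), 15 in all (60%, against 32.1%). By the mean slope, all 5 tested Hoxd genes and 4 of 5 Hoxc genes rose, 2 of 6 Hoxa genes rose and 2 fell, and 2 of 9 Hoxb genes rose and 5 fell. Not all of these calls were shared by the experiments. Hoxa9, Hoxb4, Hoxc8, Hoxc9 and Hoxd9 did not pass as rising in Ex5 itself, and Hoxb4 and Hoxd1 did not in Ex4 itself. Hoxa3, Hoxb2, Hoxb6, Hoxb8 and Hoxc5 did not pass as falling in Ex4 itself. Without the 2 libraries that stood farthest from their curves, 12 rose and 8 fell, and Hoxb4 was the call lost. Over the same hours, 3 of 4 tested pluripotency and epiblast markers fell and 1 rose, 5 of 10 neural and hindbrain markers fell and 3 rose, and 3 of 6 anterior PSM and somite markers rose and 2 fell. Sox2 is in both the pluripotency and the neural list. Pou5f1 changed by -0.54 ± 0.02 and Foxc2, a somite factor, by 0.48 ± 0.05 log2 per 100 min. The part of these markers in the Hox slopes was not tested.

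**Figure D2:**
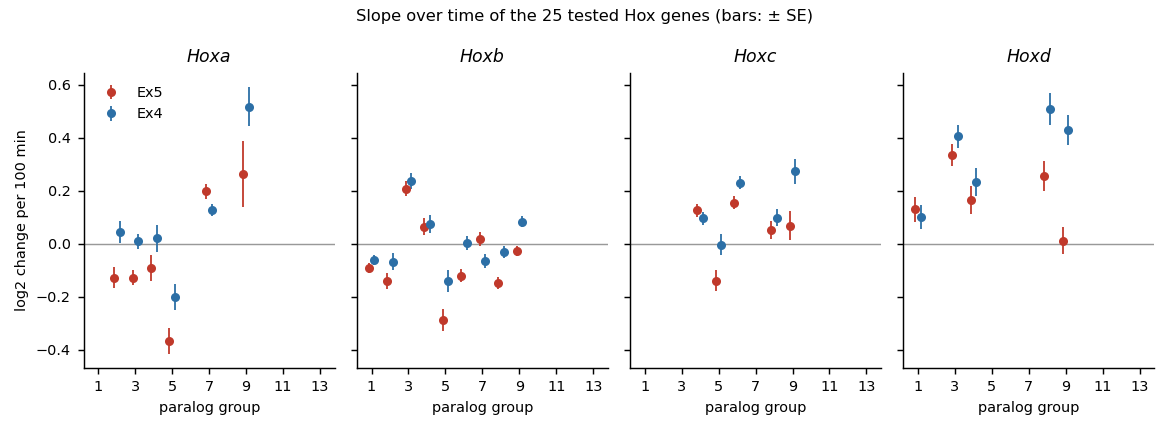
Slope over time (log2 change per 100 min, ± SE) of the 25 tested Hox genes by paralog group, in Ex5 (red) and Ex4 (blue), 1 panel per cluster, with the line at 0. The Hoxd slopes are above 0 in both experiments, and Hoxa5 and Hoxb5 have the lowest slopes in both.

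In the Hoxd cluster (chromosome 2, Hoxd13 at 74668310 to Hoxd1 at 74765142 in GRCm38), all 5 tested genes of 9 rose by the mean slope, although Hoxd9 had a slope of only 0.01 ± 0.05 in Ex5. The summed level of the cluster had a median of 127 CPM over the first 4 libraries and 173 CPM over the last 4 in Ex5, and of 112 CPM over the first 4 and 162 CPM over the last 4 in Ex4. Hoxd3, which with Hoxa3 patterns the atlas and axis, had 24.8, 32.8 and 49.7 CPM (lowest, median and highest library here and below) in Ex5, against 20.7, 29.9 and 43.3 CPM in Ex4. Its lowest libraries lay early and its highest late in both experiments, whose ranges overlapped. Its mean slope was 0.37 ± 0.03 log2 per 100 min (SE, 32 libraries, adjusted p = 1.68e-12), with 0.34 in Ex5 and 0.41 in Ex4.

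Hoxd8, a gene of the thoracic group, had 3.05, 4.69 and 6.34 CPM in Ex5, against 2.89, 3.93 and 6.87 CPM in Ex4, and was highest in the last library of each. Its mean slope was 0.38 ± 0.04 log2 per 100 min (adjusted p = 8.22e-10). Hoxd4, which helps to set the boundary between skull and neck, had 69.4, 96.5 and 124 CPM in Ex5, against 66.3, 89.4 and 123 CPM in Ex4, and rose by 0.20 ± 0.04 log2 per 100 min (adjusted p = 0.000105). Its ranges in the 2 experiments were almost the same. Hoxd1, the most 3' Hoxd gene, had 6.16, 9.36 and 10.2 CPM in Ex5, against 6.95, 8.60 and 9.54 CPM in Ex4, and rose by 0.12 ± 0.03 log2 per 100 min (adjusted p = 0.00409). Hoxd9, taken up below for its slopes, had a mean slope of 0.22 ± 0.04 (adjusted p = 9.68e-06). Hoxd3 and Hoxd4 share 388 bp of exon on the same strand in GENCODE, and 53.1% of the Hoxd3 and 39.1% of the Hoxd4 exons are also covered by the gene model Gm28230, so their counts are uncertain to that extent.

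In the Hoxc cluster (chromosome 15), Hoxc6, which marks the thorax and the forelimb level, had 30.4, 33.8 and 40.7 CPM in Ex5, against 37.9, 42.8 and 54.8 CPM in Ex4, and rose by 0.19 ± 0.02 log2 per 100 min (adjusted p = 1.18e-11). Hoxc4, the highest Hoxc gene, had 74.4, 93.2 and 107 CPM in Ex5, against 84.1, 101 and 110 CPM in Ex4, and rose by 0.11 ± 0.02 (adjusted p = 3e-06). Both had overlapping ranges, with Ex5 the lower. The mean slopes of Hoxc9 and Hoxc8 were 0.17 ± 0.04 (adjusted p = 0.000246) and 0.08 ± 0.02 log2 per 100 min (adjusted p = 0.00787). Neither gene passed in Ex5 itself, at 0.07 ± 0.06 for Hoxc9 (adjusted p = 0.306) and 0.05 ± 0.03 for Hoxc8 (adjusted p = 0.197). Hoxc5 had 23.5, 26.4 and 33.4 CPM in Ex5, against 23.9, 27.4 and 32.6 CPM in Ex4, and was the only tested Hoxc gene with a call downward, at -0.07 ± 0.03 (adjusted p = 0.0345). Its slope was -0.14 ± 0.04 in Ex5 and -0.00 ± 0.04 in Ex4. The call was lost when any of 12 single libraries was left out (adjusted p up to 0.0746): those of 180, 240, 255, 325, 345 and 425 min in Ex5 and those of 155, 170, 185, 327, 345 and 365 min in Ex4.

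In the Hoxa cluster (chromosome 6, Hoxa2 at 52162417 to Hoxa13 at 52260880), the 2 genes nearest the 5' end among those tested rose, and of the other 4 genes 2 fell and 2 did not pass. Hoxa9 had a mean slope of 0.39 ± 0.07 log2 per 100 min (adjusted p = 3.01e-05), at 0.26 ± 0.12 in Ex5 (adjusted p = 0.0711) and 0.52 ± 0.08 in Ex4 (adjusted p = 1.02e-06). Hoxa7 had a mean slope of 0.16 ± 0.02 (adjusted p = 3.09e-09). Hoxa5, which patterns the lower neck and the lung, had 5.60, 9.54 and 12.1 CPM in Ex5, against 6.87, 8.86 and 10.6 CPM in Ex4. Its highest Ex5 library was that of 165 min and its lowest that of 425 min, and the ranges overlapped. It fell by 0.28 ± 0.04 log2 per 100 min (adjusted p = 1.47e-08), at -0.37 in Ex5 and -0.20 in Ex4. Hoxa3 had 61.2, 75.0 and 83.7 CPM in Ex5, against 64.1, 71.7 and 80.7 CPM in Ex4, and a small mean slope of -0.06 ± 0.02 (adjusted p = 0.0135), with -0.13 in Ex5 and 0.01 in Ex4. Hoxa2 and Hoxa4 did not pass, at -0.04 ± 0.03 and -0.03 ± 0.04 log2 per 100 min.

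In the Hoxb cluster (chromosome 11, Hoxb13 at 96194316 to Hoxb1 at 96368256), Hoxb3 rose, and Hoxb4 passed the trend test upward in the joint fit of both experiments, between falling neighbours. Hoxb3, active in the hindbrain and pharyngeal region, had 65.5, 79.9 and 100 CPM in Ex5, against 57.9, 79.5 and 89.6 CPM in Ex4, and rose by 0.22 ± 0.02 log2 per 100 min (adjusted p = 2.59e-11), by 0.21 in Ex5 and 0.24 in Ex4. Its libraries were low early and high late in both, and its ranges overlapped. Hoxb4, known for the neck and for blood stem cells, had 52.6, 58.8 and 72.6 CPM in Ex5, against 44.7, 54.5 and 61.7 CPM in Ex4, and rose by 0.07 ± 0.03 (adjusted p = 0.0177). That call was missed in Ex5 alone (adjusted p = 0.109), in Ex4 alone (adjusted p = 0.102) and with thinned counts (adjusted p = 0.0599). In GENCODE the antisense gene Hoxb3os covers 52.9% of the Hoxb3 exons and 27.3% of the Hoxb2 exons, and no source used here gives the strand setting of the counting. Whether reads of these genes were kept apart from those of the antisense RNA is therefore not known.

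Hoxb5, which acts in the neck and shoulder region, was the Hoxb gene with the steepest fall. It had 10.5, 14.5 and 19.0 CPM in Ex5, against 11.7, 14.5 and 17.6 CPM in Ex4, and fell by 0.21 ± 0.03 log2 per 100 min (adjusted p = 1.99e-07). The same paralog group thus held the steepest falls in both Hoxa and Hoxb. Hoxb2, a hindbrain gene, had a mean slope of -0.10 ± 0.02 (adjusted p = 0.000273), Hoxb8 one of -0.09 ± 0.02 (adjusted p = 1.44e-05) and Hoxb1 one of -0.08 ± 0.01 (adjusted p = 1.11e-05). Hoxb6, a thoracic gene, had 67.1, 79.2 and 93.4 CPM in Ex5, against 70.8, 80.9 and 85.8 CPM in Ex4, and a mean slope of -0.06 ± 0.02 (adjusted p = 0.00676), with -0.12 in Ex5 and 0.00 in Ex4. Hoxb7, at 27.3 to 34.6 CPM over all libraries, and Hoxb9 did not pass, at -0.02 ± 0.02 and 0.03 ± 0.01 log2 per 100 min.

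**Figure D3:**
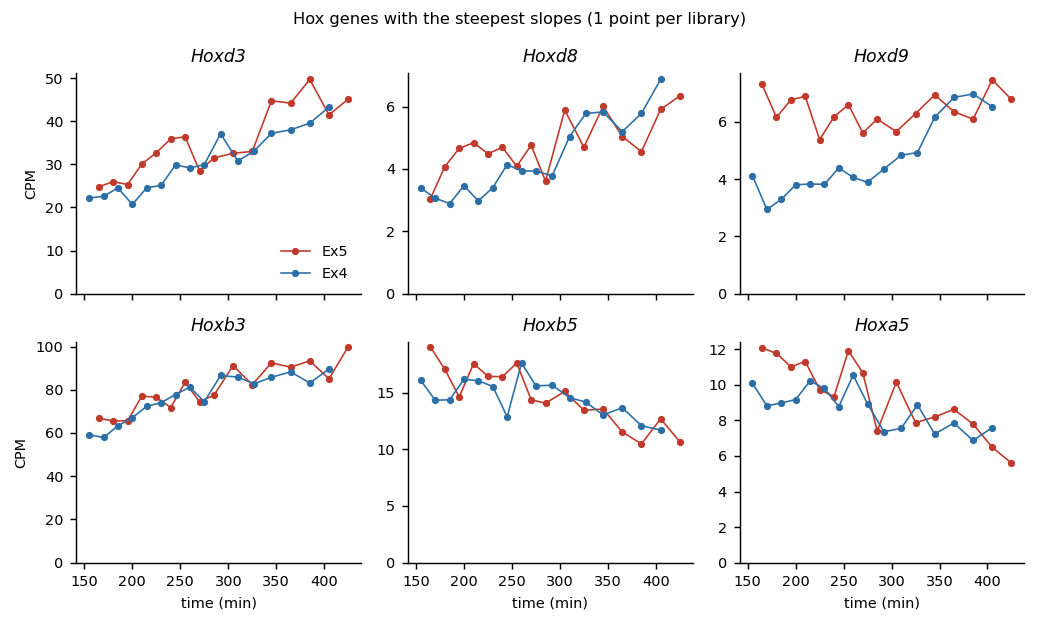
CPM against time in min for 6 Hox genes with steep slopes, 1 point per library, Ex5 red and Ex4 blue, each axis starting at 0. Hoxd3, Hoxd8 and Hoxb3 climb in both experiments, Hoxb5 and Hoxa5 decline, and Hoxd9 climbs in Ex4 but stays between 5.38 and 7.47 CPM in Ex5.

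The level at 285 min was compared next. Ex5 was higher than Ex4 for 9 of 25 Hox genes (36%), against 27% of all tested genes, and lower for 6 (24%), against 28%, and 15 in all (60%) against 55%, so the number of calls was near the background. The sizes were uneven. At a difference of at least 0.5 log2, 4 Hox genes (16%) were lower in Ex5, against 3.02% of all tested genes, and 0 were higher, against 2.57%. These 4 genes, Hoxa7, Hoxa9, Hoxc8 and Hoxc9, were also the ones whose Ex5 libraries all lay below all Ex4 libraries, which held for 1.92% of all tested genes, and no tested Hox gene had all Ex5 libraries above, against 1.61%. Hoxa9 entered the tested genes through Ex4 alone, so the filter favoured its difference. Among genes at 1 CPM in all 32 libraries, which leaves Hoxa9 out, 3 of 24 Hox genes (12.5%) were lower in Ex5 by at least 0.5 log2, against 2.23% of all genes in that fit, and 0 were higher, against 1.96%.

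Hoxa7 had the largest difference among the 24 Hox genes that reached 1 CPM in every library, and Hoxa9, at lower counts, had a larger one. Hoxa9, which acts in the thoracic and lumbar region and in blood progenitors, had 0.314, 0.784 and 1.26 CPM in Ex5, against 1.61, 2.54 and 5.26 CPM in Ex4. Every Ex5 library was below every Ex4 library. The difference was -1.93 ± 0.10 log2 (SE, adjusted p = 1.34e-19), or 3.81-fold lower in Ex5, for a gene that was tested only because its Ex4 libraries passed the filter. Hoxa7, a gene of the thoracic vertebrae, had 9.77, 13.0 and 15.9 CPM in Ex5, against 31.6, 37.0 and 43.1 CPM in Ex4, again with no overlap. Its difference was -1.54 ± 0.03 log2 (adjusted p = 9.75e-36), or 2.91-fold lower in Ex5. In GENCODE the antisense gene Hoxaas3 covers 20.4% of the Hoxa7 exons. Whether its reads were kept apart from those of Hoxa7 is not known.

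Hoxc8, which shapes the lower ribs, had 34.2, 41.6 and 49.2 CPM in Ex5, against 60.8, 72.0 and 77.9 CPM in Ex4. Hoxc9, which sets thoracic motor neuron identity, had 3.05, 3.77 and 4.44 CPM in Ex5, against 4.81, 5.90 and 8.33 CPM in Ex4. Neither gene's ranges overlapped. The differences were -0.78 ± 0.03 log2 (adjusted p = 1.12e-21) for Hoxc8 and -0.76 ± 0.05 (adjusted p = 2.2e-15) for Hoxc9. Hoxc6 was lower in Ex5 by less, at -0.41 ± 0.03 log2 (adjusted p = 4.27e-17), and Hoxc4 by -0.11 ± 0.03 (adjusted p = 0.000329), while Hoxc5 differed by -0.01 ± 0.04 (adjusted p = 0.853).

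Paralogs of the same group differed among themselves. Within group 9, Ex5 minus Ex4 was -1.93 log2 for Hoxa9, -0.76 for Hoxc9, -0.01 for Hoxb9 and 0.44 for Hoxd9. Within groups 7 and 8 it was -1.54 for Hoxa7 and -0.78 for Hoxc8, but -0.06 for Hoxb7, 0.12 for Hoxb8 and 0.12 for Hoxd8. Within group 4, at the other side of the clusters, all 4 paralogs lay between -0.11 and 0.15 log2.

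Of the genes higher in Ex5, Hoxd9 differed most and is described with the slopes, and Hoxb2, Hoxb1 and Hoxa2, from the 3' ends of their clusters, came next. Hoxb2 had 94.2, 113 and 134 CPM in Ex5, against 73.8, 87.9 and 95.0 CPM in Ex4, which overlapped narrowly, and a difference of 0.38 ± 0.03 log2 (adjusted p = 2.09e-12). Hoxb1 had 179, 204 and 229 CPM in Ex5, against 157, 174 and 187 CPM in Ex4, and a difference of 0.25 ± 0.02 (adjusted p = 3.46e-14). Hoxa2, which gives the skeleton of the second pharyngeal arch its identity, had 8.25, 10.2 and 12.2 CPM in Ex5, against 6.99, 8.70 and 10.3 CPM in Ex4. Its difference was 0.24 ± 0.04 log2 (adjusted p = 1.49e-05). In all 3 genes most Ex5 libraries lay above the Ex4 median.

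Smaller positive differences passed for Hoxd3 (0.16 ± 0.04 log2, adjusted p = 0.00289), Hoxb4 (0.13 ± 0.04, adjusted p = 0.00192), Hoxb8 (0.12 ± 0.02, adjusted p = 2.52e-05) and Hoxa4 (0.15 ± 0.05, adjusted p = 0.0192). Hoxb8, known for the lower thorax, had 102, 119 and 133 CPM in Ex5, against 100 to 121 CPM in Ex4 with a median of 107 CPM. Hoxa4, a gene of the neck, had 7.03, 9.14 and 12.3 CPM in Ex5, against 6.83, 8.31 and 9.69 CPM in Ex4. Hoxa5 passed narrowly at 0.12 ± 0.05 (adjusted p = 0.0425), and lost the call when any of 17 single libraries was left out, 8 of Ex5 and 9 of Ex4 (adjusted p up to 0.0908). With a quadratic time term 6 Hox genes were higher in Ex5 and 6 lower, and the calls of Hoxd3 (adjusted p = 0.0594), Hoxa4 (adjusted p = 0.0563) and Hoxa5 were lost. Hoxa4 also missed the threshold under the GC and length correction (adjusted p = 0.0527).

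**Figure D4:**
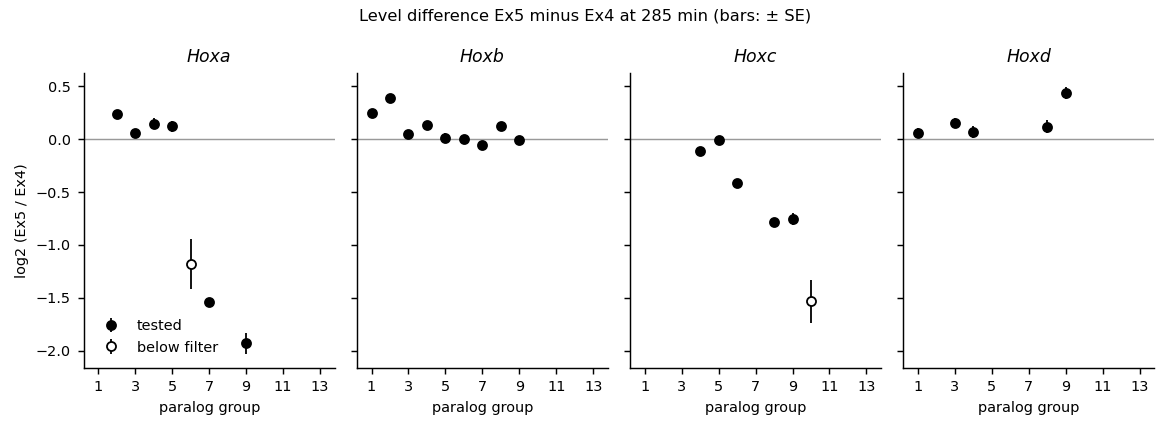
Level difference at 285 min, log2 of Ex5 over Ex4 with ± SE, by paralog group, 1 panel per cluster. Filled points are the 25 tested Hox genes. Open points are Hoxa6 and Hoxc10, 2 genes below the filter, from the fit of all genes with counts. Hoxd13, also below the filter, had 0.38 ± 0.21 in that fit and is not drawn. Values lie between -0.06 and 0.38 in Hoxb and go down to -1.93 at group 9 in Hoxa and -1.53 at group 10 in Hoxc.

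In a fit that kept all 18180 genes with any count, 3 of the 12 genes below the filter passed as lower in Ex5, against 19.8% of all genes in that fit, and 0 as higher, against 19.4%. Hoxc10 differed by -1.53 ± 0.20 log2 (adjusted p = 1.25e-08), Hoxa6 by -1.18 ± 0.24 (adjusted p = 5.78e-05) and Hoxc13 by -1.32 ± 0.48 (adjusted p = 0.0243). Hoxc10 had 73 counts in all Ex5 libraries and 238 in all Ex4 libraries, Hoxa6 had 65 in Ex5 and 159 in Ex4, and Hoxc13 had 15 in Ex5 and 39 in Ex4. In the same fit Hoxd13 alone of the 12 had a trend, downward at -0.48 ± 0.14 log2 per 100 min (adjusted p = 0.00611), against 19.7% of all genes falling. The level difference of Hoxd13 was positive and did not pass, at 0.38 ± 0.21 log2 (adjusted p = 0.157).

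**Figure D5:**
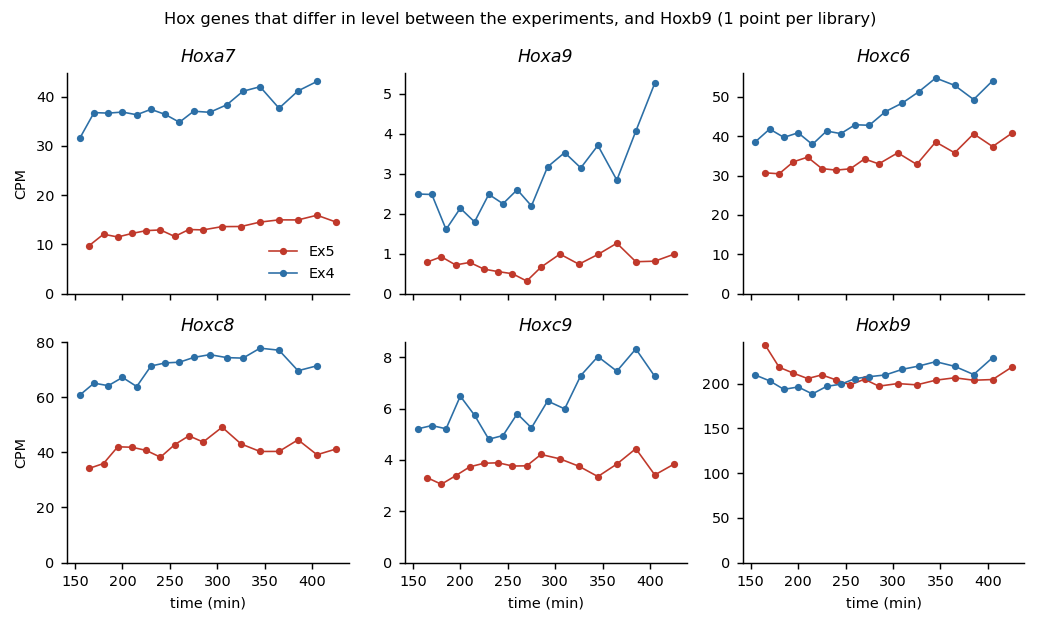
CPM against time in min for 5 Hox genes lower in Ex5 (red) than in Ex4 (blue) and for Hoxb9, 1 point per library, each axis starting at 0. The courses of Hoxa7, Hoxa9, Hoxc8 and Hoxc9 stay apart at every time, those of Hoxc6 come close, and those of Hoxb9 cross.

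The experiments also differed in markers of cell states. The summed level of 14 neural and hindbrain markers was 105 to 123 CPM in Ex5 (median 116) and 149 to 183 CPM in Ex4 (median 165), with no overlap, and 5 of the 10 tested were lower in Ex5, against 28% of all tested genes, and 2 higher, against 27%. Neurog2, Egr2, Olig2 and Elavl3 had medians under 1 CPM. Sox2 differed by -1.16 ± 0.04 log2 and Nkx1-2, a marker of axial progenitors, by -1.13 ± 0.04, while the PSM regulator Msgn1 was 0.78 ± 0.03 higher in Ex5, none with overlapping ranges. The PSM markers did not move in 1 direction as a list: 7 of 15 were higher in Ex5 and 7 lower. Among the lower ones were Nkx1-2, Wnt3a by -0.33 ± 0.03 and Cdx2 by -0.15 ± 0.02 log2. The summed level of 10 pluripotency and epiblast markers was 233 to 315 CPM in Ex5 and 288 to 405 CPM in Ex4, with Nanog, Fgf5, Otx2, Esrrb, Zfp42 and Utf1 under 1 CPM. All 4 that were tested were lower in Ex5, among them Pou5f1 by -0.39 ± 0.03 log2. Sox2 belongs to this list and to the neural one and counts in both, so the lists are not separate. Summed markers of lateral and intermediate mesoderm stood at 11.8 to 23.7 CPM in Ex5 and 12.1 to 17.5 CPM in Ex4, and those of endoderm and notochord at 31.0 to 56.1 CPM in Ex5 and 39.9 to 61.6 CPM in Ex4. The neural and pluripotency markers, Nkx1-2 and Msgn1 differed between the experiments along with the lower levels of Hoxa7, Hoxa9, Hoxc8 and Hoxc9, and their part in the result was not tested. With 1 set of dishes per experiment, culture, RNA preparation and sequencing cannot be told apart as sources of a level difference.

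The slopes of the experiments were then compared. All 8 calls among the 25 Hox genes (32%) were negative, against 8.98% of all tested genes, so these genes rose less or fell more in Ex5, and 0 were positive, against 6.57% (15.5% either way). The median difference of the Hox slopes was -0.11 log2 per 100 min, and that of all tested genes was 0.00. DESeq2 and limma-voom also gave 0 positive calls, and Hoxb7 alone was positive at an unadjusted p under 0.05 (edgeR, 0.08 ± 0.04, p = 0.0236 in a fit of 32 libraries). Without the 365 min library of Ex4, 9 Hox genes were called, and 1 of them, Hoxb7, was positive. The calls were spread over clusters: Hoxa2, Hoxa3, Hoxb6, Hoxb8, Hoxb9, Hoxc9, Hoxd8 and Hoxd9. Of 15 PSM markers, 5 also had lower slopes in Ex5 and 0 higher ones, and the part of that shift in the Hox result was not tested. Leaving out the 405 min library of Ex4 left 5 of the 8 Hox calls (Hoxa2, Hoxc9 and Hoxd8 were lost), equal thinned depth left 5 and keeping only libraries between 165 and 405 min left 5 (Hoxa2, Hoxa3 and Hoxb6 were lost). Without the library farthest from its fitted curves in each experiment, 7 Hox genes were called: Hoxa2 and Hoxd8 were lost and Hoxb5 was gained. The same step left 14 calls in level (8 higher and 6 lower in Ex5), with Hoxa5 lost.

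Hoxd9, a gene of the lumbar region and proximal limb, had the largest difference. It had 5.38, 6.32 and 7.47 CPM in Ex5, against 2.94, 4.23 and 6.98 CPM in Ex4. The first Ex4 libraries lay below all Ex5 libraries and the last ones among them, with medians of 6.83 CPM over the first 4 and 6.57 CPM over the last 4 libraries in Ex5, and 3.54 and 6.69 CPM in Ex4. Its slope was 0.01 ± 0.05 log2 per 100 min in Ex5 and 0.43 ± 0.06 in Ex4, a difference of -0.42 ± 0.07 (adjusted p = 8.9e-05). Its level difference of 0.44 ± 0.06 log2 (adjusted p = 1.31e-08) refers to 285 min, in the middle of the course.

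Hoxd8 rose in both experiments, by 0.26 ± 0.06 log2 per 100 min in Ex5 and 0.51 ± 0.06 in Ex4, a difference of -0.25 ± 0.08 (adjusted p = 0.0255) that missed the threshold without the 405 min library of Ex4 (-0.23, adjusted p = 0.0643). Hoxc9 had a slope of 0.07 ± 0.06 in Ex5 and 0.27 ± 0.05 in Ex4, a difference of -0.20 ± 0.07 (adjusted p = 0.0435). That call was lost without any of 16 single libraries, 9 of Ex5 and 7 of Ex4 (adjusted p up to 0.0987), with DESeq2 and under equal thinned depth. Hoxb9 had 197, 205 and 244 CPM in Ex5, against 189, 209 and 229 CPM in Ex4, and its courses crossed. Its highest library was that of 165 min in Ex5 and that of 405 min in Ex4. Its slope was -0.03 ± 0.02 in Ex5 and 0.08 ± 0.02 in Ex4, a difference of -0.11 ± 0.03 (adjusted p = 0.00443).

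The other 4 differences were on genes that fell in Ex5 and had slopes between -0.03 and 0.04 log2 per 100 min in Ex4. Hoxa2 had -0.13 ± 0.04 in Ex5 and 0.04 ± 0.04 in Ex4, a difference of -0.17 ± 0.06 (adjusted p = 0.0329), lost without any of 6 single libraries (adjusted p up to 0.106): those of 180, 405 and 425 min in Ex5 and those of 185, 385 and 405 min in Ex4. The difference was -0.14 ± 0.04 for Hoxa3 (adjusted p = 0.0119), -0.12 ± 0.03 for Hoxb6 (adjusted p = 0.0123) and -0.12 ± 0.03 for Hoxb8 (adjusted p = 0.00655). Within 165 to 405 min Hoxa3 (adjusted p = 0.0905) and Hoxb6 (adjusted p = 0.0915) missed the threshold. Hoxb8 had -0.15 ± 0.02 in Ex5 and -0.03 ± 0.02 in Ex4.

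The clock phase was taken from Hes7, a repressor at the core of the oscillator, with a fitted period of 135 min (95% interval 129 to 141). No Hox gene passed the test for a rhythm in that phase with edgeR (0 of 25, against 1.35% of all tested genes), and DESeq2 and limma-voom also called 0. At an unadjusted p under 0.05 there were 6 Hox genes, Hoxa2, Hoxa7, Hoxa9, Hoxb6, Hoxc6 and Hoxd1 (24%, against 12.7% of all). The largest fitted change from trough to peak was 1.37-fold for Hoxa9 (adjusted p = 0.23), a gene of low counts, and for the most abundant genes it was 1.05-fold for Hoxb9 and 1.02-fold for Hoxb1. Small rhythms may have been missed with this number of libraries and at this depth.

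Rhythms did not pass the test of a difference between the experiments either (edgeR, 0 of 25, against 0% of all tested genes; 4 Hox genes, or 16%, at an unadjusted p under 0.05, against 5.24%). DESeq2 and limma-voom also called 0 after adjustment and gave 4 Hox genes each at an unadjusted p under 0.05. The 4 genes in edgeR were Hoxa2, Hoxc5, Hoxd3 and Hoxd4. Fitted in Ex5 alone, Hoxd3 cycled 1.26-fold (adjusted p = 0.0344, with 0.433% of all genes called), against 1.10-fold in Ex4 alone (adjusted p = 0.556, with 0.374% called), and the adjusted p of its difference in rhythm was 0.88.

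Genes that act on the clusters were taken from lists made for the Hox genes. Of 22 regulators, 14 were tested, and 10 fell and 2 rose over time, against 26.1% and 26.8% of all tested genes. Cdx1, a caudal-type factor that activates Hox genes, had 0.466, 1.97 and 5.99 CPM in Ex5, against 1.27, 3.62 and 7.14 CPM in Ex4, and a slope of -1.23 ± 0.06 log2 per 100 min (adjusted p = 1.58e-19). It was highest early in both and overlapped between them. Cdx2, the main caudal factor of the posterior embryo, had 356, 420 and 499 CPM in Ex5, against 425, 473 and 517 CPM in Ex4, a slope of -0.06 ± 0.01 (adjusted p = 0.000369) and a level difference of -0.15 ± 0.02 log2 (adjusted p = 3.83e-08). Cdx4 had at most 0.285 CPM in Ex5 and 0.496 CPM in Ex4 and was not tested.

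Among the other regulators, Wnt3a, a ligand of the tail bud, fell by 0.25 ± 0.02 log2 per 100 min. The retinoic acid synthase gene Aldh1a2 fell by 0.18 ± 0.02, Nr6a1, a nuclear receptor of the trunk, by 0.15 ± 0.02, and the ligand gene Fgf8 by 0.13 ± 0.02. At 285 min, 10 of the 14 were lower in Ex5, against 28% of all tested genes, and 3 higher, against 27%. Nr6a1 was lower in Ex5 by -0.39 ± 0.03 log2 and Wnt3a by -0.33 ± 0.03.

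Of 11 cofactors of HOX proteins, all tested, 7 rose by the mean slope, against 26.8% of all tested genes, and 1 fell, against 26.1%. Pknox2 rose by 0.25 ± 0.02 log2 per 100 min, Meis2 by 0.16 ± 0.03 and Pbx3 by 0.13 ± 0.02, all homeodomain partners that bind DNA with HOX proteins. Meis1, another partner, had a mean slope of 0.44 ± 0.19 (adjusted p = 0.0469), with levels between 0.740 and 6.94 CPM in Ex5 and between 0.774 and 6.82 CPM in Ex4. Its median went from 1.82 CPM over the first 4 libraries to 1.22 CPM over the last 4 in Ex5. In Ex4 that median went from 1.28 to 1.86 CPM, so a rise was not seen in both. Gmnn, a HOX-binding cell cycle protein, fell by 0.07 ± 0.02. Of 23 tested Polycomb and trithorax genes, which keep Hox genes off or on, 8 rose and 7 fell, near the background, with Ezh1 at 0.19 ± 0.03 and Suz12 at -0.12 ± 0.02 log2 per 100 min.

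Of 18 tested neighbours of the clusters, 7 rose, against 26.8% of all tested genes, and 5 fell, near the background of 26.1%. Evx1, the homeobox gene beyond the 5' end of Hoxa, had 92.0, 97.8 and 141 CPM in Ex5, against 143, 163 and 185 CPM in Ex4, with no overlap, and differed by -0.59 ± 0.03 log2 (adjusted p = 3.53e-20). Evx2, at the same end of Hoxd, had at most 0.0408 CPM in Ex5 and 0.0521 CPM in Ex4. On the 3' side, Skap2, next to Hoxa, differed by -0.07 ± 0.02 log2 and Skap1, next to Hoxb, by 0.53 ± 0.07, and Mtx2, next to Hoxd, by 0.09 ± 0.03.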

How the data were processed

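Polyadenylated RNA (200 ng total RNA, strand-marking mRNA kit per the labels' protocols) was measured in 32 libraries, 16 of Ex5 and 16 of Ex4. The authors deposited raw read counts per gene symbol. Per the submitters' processing notes, bcl2fastq 2.17.1.14, cutadapt 1.14, HISAT2 2.1.0, HTSeq 0.6.1 and the build mm10 were used. No source used here gives the gene annotation or how HTSeq was told to treat strand. Columns were matched to samples by description, and 0 were unused. Rows without a gene name numbered 0.

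The 38 members, the lists and the rule for named genes were chosen with earlier results of these data known. That rule took the highest gene per cluster, up to 5 rising and 5 falling genes per cluster past the trend test, up to 12 genes past each other test, and the genes next to the filter. Up to 6 genes of each other list past the trend test were named, with Cdx1, Cdx2 and Cdx4, and some genes that the rule takes are not reported here; neural and PSM markers and the genes flanking the clusters were chosen after their values were seen.

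CPM used TMM factors (edgeR 4.0.16, R 4.3.3). A gene was kept if 16 or more libraries reached 1 CPM (11772 genes). These were fitted with edgeR's quasi-likelihood model (robust), with an intercept at 285 min and a slope per experiment, and with the cosine and sine of the Hes7 phase in common, whose period was searched from 90 to 240 min. Trend (mean slope), level and slope (Ex5 minus Ex4), rhythm and rhythm difference were tested, with Benjamini-Hochberg adjustment over all genes at 0.05. With 1 library per time point, the spread is that around the curves. The procedure was tested on simulated counts.

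Alternatives were DESeq2 1.42.0 and its size factors, limma-voom 3.58.1, other filters, periods and time terms, thinned counts, a GC and length correction, single experiments, common times, each library left out and, added after the data were seen, the library of largest residual SD in each experiment left out. Time point numbers did not pair the libraries: correlations of same-numbered residuals ran from -0.16 to 0.15. Positions and exon lengths are from GENCODE M21 (GRCm38, the assembly behind mm10), where all 38 genes matched by symbol. Promoters are from RefSeq. Of 24 noncoding RNAs listed for the clusters, 1 had a row and did not pass any test, and the others were not analysed here.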

Additional observations from a re-analysis of the deposited data

Results flagged for a closer look

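For 8 Hox genes the slope over time differed between Ex5 and Ex4 in the test of that difference (edgeR's quasi-likelihood test, adjusted over all genes), and each difference was negative. In log2 per 100 min, Ex5 minus Ex4 was -0.42 for Hoxd9, -0.25 for Hoxd8, -0.20 for Hoxc9, -0.17 for Hoxa2, -0.14 for Hoxa3, -0.12 for Hoxb6, -0.12 for Hoxb8 and -0.11 for Hoxb9. Hoxd9, Hoxb8 and Hoxb9 passed under every alternative run for them.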

How the results depend on the processing

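Of 1955 values of single Hox genes recomputed under the alternatives, 1866 kept direction and call, 86 missed the threshold and 3 reversed, all trends in Ex4 alone: Hoxa3 (0.0107), Hoxb6 (0.00453) and Hoxc5 (0.0103 log2 per 100 min). Leaving out 1 library at a time gave 20 to 22 trend calls, 14 to 16 level calls, 5 to 9 slope calls, and 0 to 0 calls for rhythm and for rhythm difference. The 8 slope calls were 5 with thinned counts and 5 within 165 to 405 min, and the cause was not tested. Ex5 alone gave 1 rhythm call, Hoxd3. The Hoxb share of the summed level, 66.3% per kb over all libraries, was 63.3% without division by length. With DESeq2 size factors it stayed at 66.3%, which follows from the construction, as the scaling of a library cancels in a share. Another scaling moved the median of all genes by at most 0.002 log2 and changed no count. With time point number as a replicate block, 16 level, 8 slope, 0 rhythm and 0 rhythm difference calls were made (level gained Hoxb3 and Hoxd8 and lost Hoxa5; slope gained Hoxb5 and Hoxc5 and lost Hoxc9 and Hoxd8). The trend has no value under that block, which takes up time itself. For rhythm the block fit called 3 of all tested genes, against 159 in the main fit. Its 0 Hox calls for rhythm therefore decide little. The numbers also do not pair the libraries: 0 of 16 Ex5 libraries correlated best with their own number. Counts near 0 limit groups 10 to 13, and Hoxa9 rests on at most 108 counts in a library.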
